A study of Triticum aestivum with 4 samples.

Results

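The barley and Brachypodium type miRNAs examined here were the rows of the known-miRNA section of the deposited table whose family number lay between miR5048 and miR5071, miR5163 and miR5202, miR6177 and miR6214, or miR7707 and miR7787. The families miR5049, miR5174, miR5175, miR5180, miR5181, miR5200 and miR6197 were left out. This rule used names alone and found 25 of the 348 listed miRNAs, or 25 of the 282 known ones. The first block gave 13 of them, the second 2, the next 4 and the last 6. The table gives no species for a name, so the barley or Brachypodium origin of each row could not be checked, and the group is defined by its numbers.

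The study sequenced small RNA from crowns, the stem bases that hold the shoot apical meristem, of the semi-winter wheat cultivar Shimai 22 grown in the field under natural weather. Crowns came from 4 stages of the season, namely the three-leaf stage, winter dormancy, spring green-up and jointing, when stems elongate. These libraries hold no other treatment, genotype or tissue. The study also compared its changed miRNAs with leaf values from its earlier work, which were not analysed here. Each stage is a single library, made from an equal mix of the RNA of 3 biological replicates, so that stage and library cannot be told apart. Differences between stages in these libraries therefore have no replicate check, and no test of a stage could be made from them. The study also measured some of its differentially expressed miRNAs by qRT-PCR and reports similar patterns for most. Those measurements were not analysed here. Every 95% interval below takes in counting error alone, because each stage is a single library. Reads copied by PCR were not tagged by molecule and count as separate reads, so even the counting error may be understated. A crown holds several cell types, and fewer cells of a type cannot be told apart from less of a miRNA per cell.

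Plant miRNAs are cut from hairpin precursors by a Dicer-like enzyme, which releases a duplex of a 5p and a 3p arm. One arm usually enters an ARGONAUTE protein and guides it to transcripts of matching sequence, while the other is mostly degraded. Families shared by all land plants sit beside many young ones found in a single lineage such as the grasses, and these are often expressed weakly. Small RNAs of 24 nt are typically made by another Dicer-like enzyme from repeats and direct DNA methylation, and miRNAs of 22 nt can start the production of secondary small RNAs from their targets.

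The mature sequences below are those on which the results turn, taken from the deposited table, 5′ to 3′, with bases 2 to 8 (the seed) in capitals. The first set is that of the abundant miRNAs, and no member shared a seed with another of the 25.
miR5048-5p: uUUGCAGGuuuuaggucuaagu
miR7757-5p: aCAAAACCuucagcuauccauc
miR5062a: uGAACCUUggggaaaagccgcau

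The second set holds members with a partner in the table, shown so that the arms and near copies discussed later can be compared.
miR6201: uGACCCUGaggcacucauaccg
miR6201-3p: gUACGAGUgucucagggucaaa
miR5070-3p: uUGAACUAaguagggucggag
miR5070-5p: uCCGACCCuucuuaguucaac
miR6191: cUUGGAUUugucuagauacggaug
wheat_miR2133: aUCCGUAUcuagacaaaucuaag
miR5060: cGGCAAGCuagagacagcaac
miR444b.1: uGUUGUCUcaagcuugcugcc
miR5064: uUAAUUUGuccauagcauccg
miR9674b-3p: uGAAUUUGuccauagcaucag
miR5050: aGAUGAUUuggaaugaugaggggu
miR1877: aGAUGAUUuggaaugaugaggggu

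The third set holds some, not all, of the members listed at or near 0 in at least 1 library and well above it in another, with the seed in capitals as before.
miR7767-5p: cACCCCAAgaugagugcucucuc
miR5067: uUGAGCGAcaacuaauaugga
miR5169a: aAGUUUGAccaaguuuauaca

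The last set holds miR7782-3p and the 5 rows outside the group that share a run of 12 bases with it, and miR7783-3p, which has that run with 1 mismatch. The run, or in miR7783-3p the matching stretch, is in capitals in place of the seed.
miR7782-3p: accugGCUCUGAUACCAcuguugg
miR7783-3p: acaaaccGCUCUAAUACCAugugg
miR1871: agGCUCUGAUACCAcuguuggguu
miR1511: aaaaccuagGCUCUGAUACCAcug
miR845c: agGCUCUGAUACCAauugaaagga
miR5139: cgaaaccugGCUCUGAUACCA
miR8155: ucgaaaccugGCUCUGAUACCA

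Values are in RPM, the authors' reads per 1000000 mapped reads. The steps between the low values, as deposited, implied between 20533400 and 21888600 reads per library, so that 1 decimal of RPM, the precision of the known miRNAs, is within about 1.1 reads. All listed miRNAs together held 14.3%, 13.6%, 10.7% and 6.89% of these reads at the 4 stages in order. To count differences over 2-fold, a miRNA listed at 0 was set to 3 reads (0.137 to 0.146 RPM). The lowest listed values of known miRNAs were 4 to 13 reads, so a 0 need not mean that no read was found.

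A few rows were very abundant and most were low. Summed over members, the group had 18496.5, 20338.6, 9231.1 and 7106.3 RPM in the libraries, taken in seasonal order. The 3 miRNAs miR5048-5p, miR7757-5p and miR5062a held 94.3%, 95.5%, 92.1% and 94.1% of these sums, with Wilson 95% intervals such as 91.97% to 92.21% at green-up. The other 22 together had 1053.7, 913.5, 730.0 and 419.2 RPM. The least abundant of the 3 was still 16.0, 22.2, 15.7 and 16.8 times the highest of the other 22 in the 4 libraries. That next row was miR5071 in the first, second and last library, and miR6191 at green-up.

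**Figure D1:**
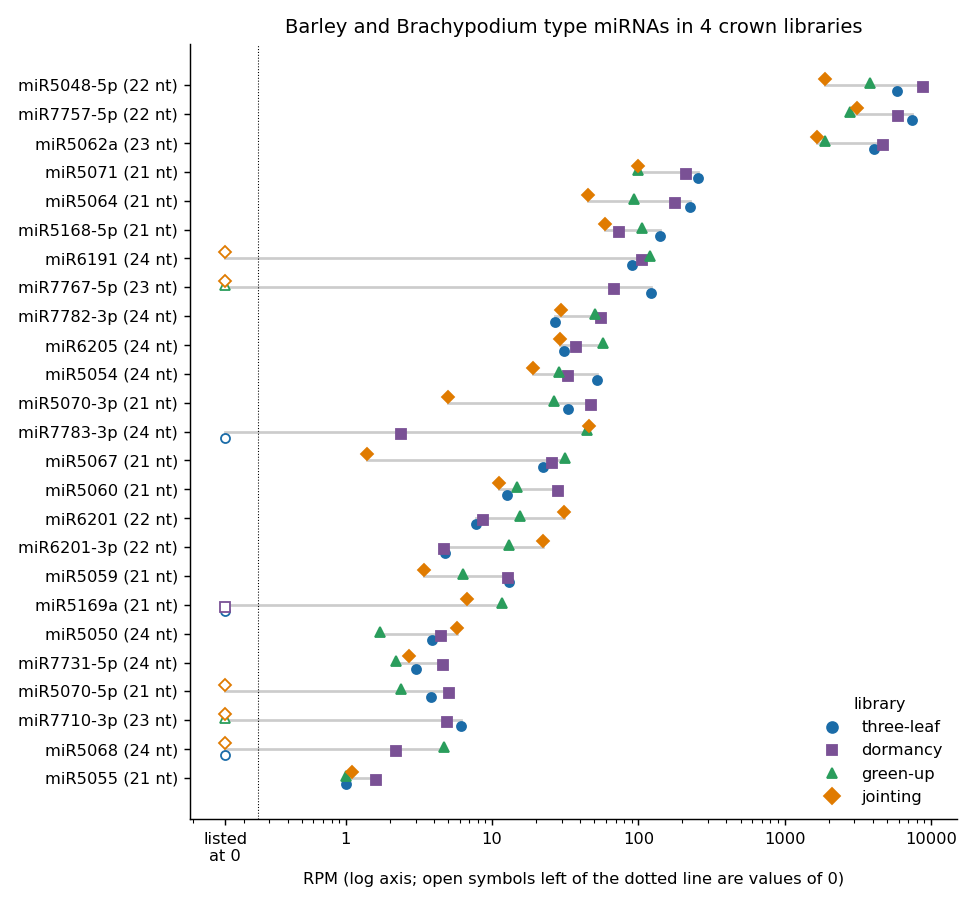
RPM (log axis) of each of the 25 members in the 4 crown libraries, ordered by the sum over libraries, with the length in nt beside the name. Coloured symbols are single pooled libraries, the grey line joins the lowest and highest, and open symbols left of the dotted line are values listed at 0. The 3 rows at the top lie above 1000 RPM in every library, and all others stay at or below 256.3 RPM.

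miR5048-5p, known from wheat and barley, had 5891.1 RPM in the three-leaf library, 8765.7 in that of dormancy, 3809.0 in that of green-up and 1873.7 in that of jointing. It was highest in winter and lowest in the last library. Summed over the 4 libraries it ranked 3 among all 348 miRNAs, and 1 among known miRNAs outside the families conserved across plants. Its log2 change into dormancy was 0.57 (exact binomial 95% interval 0.56 to 0.58), then -1.20 to green-up (-1.21 to -1.19) and -1.02 from green-up to jointing (-1.04 to -1.01).

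miR7757-5p, known from wheat and Brachypodium, had 7455.9, 5976.9, 2804.9 and 3139.8 RPM in the same order. Unlike miR5048-5p it was highest before winter, and its lowest library was green-up. It ranked 4 among all miRNAs. The step from dormancy to green-up was -1.09 on the log2 scale (-1.11 to -1.08), and those before and after it were -0.32 and 0.16. When libraries were scaled to the summed RPM of listed miRNAs or by their median ratio, the last step was 0.80 and 0.70.

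miR5062a had 4095.8, 4682.5, 1887.2 and 1673.6 RPM in the order of the stages. The first and second libraries were the higher ones, with dormancy on top. It ranked 7 among all miRNAs. Its log2 change was 0.19 into dormancy, -1.31 to green-up (-1.33 to -1.29) and -0.17 to jointing, the last of which turned positive (0.46 and 0.36) when libraries were scaled to the summed RPM of listed miRNAs or by their median ratio.

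The order of these 3 miRNAs differed between libraries. miR7757-5p led in the three-leaf library with 40.3% of the members' sum and in the jointing library with 44.2%. miR5048-5p led at dormancy with 43.1% and at green-up with 41.3%. miR5062a was the least abundant of the 3 in every library, between 20.4% and 23.6%. Within each library the 95% counting intervals of the 3 values did not overlap, the closest being miR5048-5p (1855 to 1892 RPM) and miR5062a (1656 to 1691 RPM) at jointing. The study assayed and reports cleavage of a predicted target of miR5048-5p and of a predicted target of miR7757-5p. Targets were not analysed here.

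**Figure D2:**
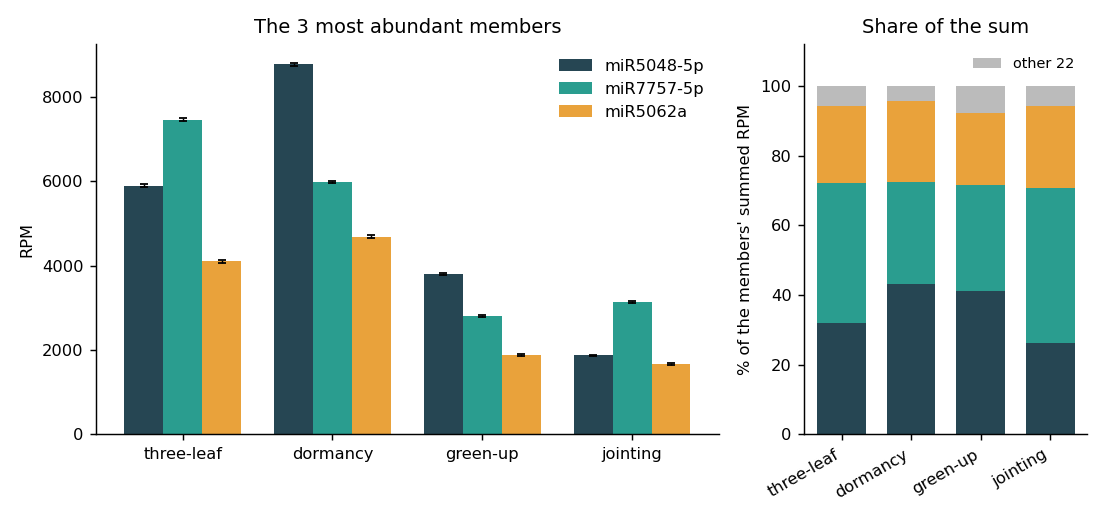
Left, RPM of miR5048-5p, miR7757-5p and miR5062a in each library, with bars from 0 and error bars showing the Wilson 95% counting interval. Right, the percentage of the members' summed RPM held by each of the 3 and by the other 22, from 92.1% to 95.5% for the 3 together.

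The other 22 members had medians of 12.85, 19.25, 15.1 and 6.25 RPM in the 4 libraries, and the quartiles were 3.83 and 47.4 RPM in the first library and 1.18 and 29.7 RPM in the last. Taking all 25, the medians were 22.2, 28.1, 26.3 and 11.2 RPM. For the 257 other known miRNAs they were 16.5, 14.6, 16.0 and 9.5 RPM, and for the 47 conserved ones 50.3, 40.3, 32.3 and 27.1 RPM. For the 41 wheat miRNAs with family numbers from miR9652 to miR9679 or miR9772 to miR9783 they were 33.8, 15.9, 18.6 and 14.5 RPM. The 12 rows with the numbers left out had no miRNA above 1000 RPM, but medians of 126.1, 134.2, 96.7 and 54.1 RPM. Of the 25 members, 3 exceeded 1000 RPM, against 21 of the 257 others. These included 7 of the 41 wheat miRNAs and 12 of the 47 conserved ones. Of the 25, 6 (24%) stayed below 10 RPM in all libraries, against 27.2% of the others.

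Most members were listed in every library. A value above 0 was given in all 4 libraries for 18 of the 25 (72%) and for 57.2% of the other known miRNAs. For the 41 wheat miRNAs named above this share was 82.9%, and for the 47 conserved ones 70.2%. The members' values at 0 numbered 11 of 100. They belonged to miR5068, miR5070-5p, miR5169a, miR6191, miR7710-3p, miR7767-5p and miR7783-3p.

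By length, most of the members' RPM lay at 22 and 23 nt. The members comprised 10 miRNAs of 21 nt, 4 of 22 nt, 3 of 23 nt and 8 of 24 nt, and none of 20 nt. The 22-nt rows, miR5048-5p, miR7757-5p and both miR6201 arms, held 72.2% of the RPM summed over libraries, and the 23-nt rows 22.7%, nearly all of it miR5062a. The 10 rows of 21 nt held 3.47% and the 8 of 24 nt 1.62%. Among the 257 other known miRNAs, 84.4% of the RPM lay at 21 nt and 8.98% at 22 nt. By number of rows the lists were closer, with 40% of members and 51.4% of the others at 21 nt, and 32% and 26.8% at 24 nt. The first base was U in 10 of the 25 members (40%) and in 43.6% of the others.

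**Figure D3:**
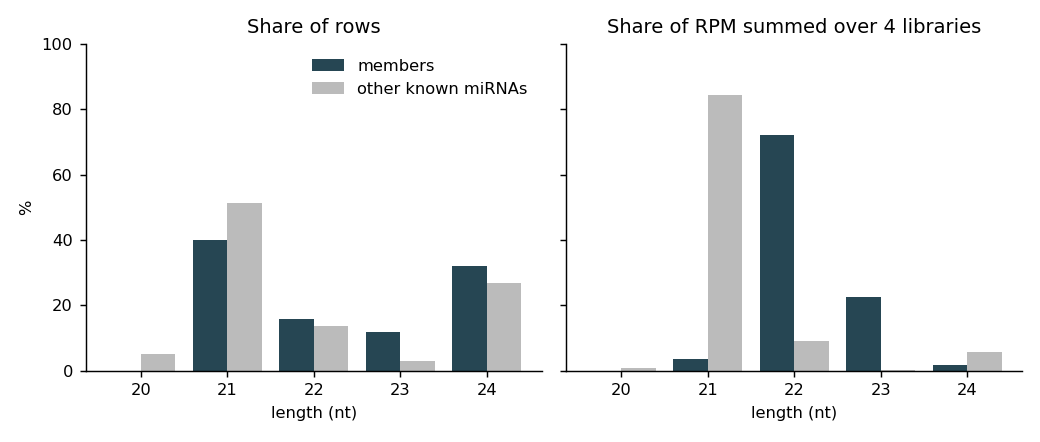
Percentage of rows (left) and of RPM summed over the 4 libraries (right) by length, for the 25 members and the 257 other known miRNAs. The members' RPM sits at 22 and 23 nt (72.2% and 22.7%) and that of the others at 21 nt (84.4%).

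The sums of the length classes had different stage profiles. The 21-nt members summed to 705.7, 582.4, 392.3 and 233.3 RPM, lower in each later library. Most of this was miR5071, miR5064 and miR5168-5p. Of the 10 rows of 21 nt, 4 had their highest value at the three-leaf stage, 4 at dormancy and 2 at green-up. The 24-nt members summed to 207.8, 244.9, 309.2 and 132.6 RPM, with the maximum at green-up. Of the 8 rows of 24 nt, 3 had their highest value at green-up, 2 at dormancy, 2 at jointing and 1 at the three-leaf stage. Among the other known miRNAs of 24 nt, 32 of 69 were highest at green-up. Their sums were 7575.8, 7077, 4668.8 and 2367.8 RPM, highest at the three-leaf stage and lower in each later library.

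Of all 25 members, the numbers with their highest value in the first to the last library were 8, 8, 5 and 4. These are 32%, 32%, 20% and 16%, near the 28.8%, 26.5%, 26.1% and 18.7% of the other known miRNAs. Jointing alone was the lowest library for 12 members (48%), and for 38.1% of the other known miRNAs. For 12 members the three-leaf and dormancy values both exceeded the green-up and jointing values, and for 4 the reverse held, against 34.8% and 12.4% of all known miRNAs. These splits depend on the scaling. With libraries scaled to the listed miRNAs the members' counts became 8 and 6, and by median ratio 9 and 5.

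To compare stages, a miRNA was counted as changed when its RPM differed over 2-fold and the higher value was above 5 RPM, the fold and level thresholds of the study's methods. In at least 1 library 22 of the 25 members exceeded 5 RPM. The comparisons share libraries, so they are not independent of each other. Over all listed miRNAs above 5 RPM in either library, the median log2 change was -0.01 into dormancy, -0.28 to green-up, -0.70 to jointing, and -1.25 over the whole period. Scaling to the summed RPM of listed miRNAs raised every log2 change by 0.07, 0.34, 0.64 and 1.05 in these comparisons, and the median ratio by 0.15, 0.21, 0.54 and 0.90.

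From the three-leaf stage to dormancy, 18 members could be compared. Of these, 2 were over 2-fold higher (11.1%), against 10.3% of all 252 listed miRNAs above the level, and none was lower, against 16.3%. The members' median log2 change was 0.18. The 2 were miR5060 (log2 1.15, 0.94 to 1.36) and miR7782-3p (1.04, 0.90 to 1.19). Both 95% intervals span 2-fold, so neither can be placed on either side of it.

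From dormancy to green-up, 7 of 20 members were lower (35%), with 28.8% lower among all listed miRNAs, and 3 were higher (15%), with 17.2% among all. The median log2 change of the members was -0.52. The lower ones were miR5048-5p, miR5062a, miR7757-5p, miR5071, miR5059, miR5070-5p and miR7767-5p. Except for miR7767-5p, which was at 0 at green-up, all of these lay between -1.31 and -1.03. The 95% intervals of miR5059 (-1.34 to -0.73) and miR5070-5p (-1.58 to -0.59) span 2-fold. Only 1 of the 7, miR7767-5p, stayed past the threshold when scaled to the listed miRNAs, and with the median ratio 2 did, miR7767-5p and miR5062a. The higher ones were miR5169a, miR6201-3p and miR7783-3p, which were over 2-fold higher under both scalings as well, where 4 members were higher in all. The sum of the 25 members fell by 1.14 on the log2 scale (-0.80 and -0.93 under the scalings). That of the 257 other known miRNAs had a log2 change of -0.20 (0.13 and 0.00 under the scalings). Among these others, the 41 wheat miRNAs numbered miR9652 to miR9679 or miR9772 to miR9783 also fell in sum, from 23874.7 to 12833.8 RPM. A fall was thus not particular to the members. The 47 conserved ones went from 75885.1 to 71623.7 RPM, a small fall that becomes a rise under either scaling (shifts of 0.34 and 0.21). The members' sum follows its 3 abundant miRNAs, at -1.19, and the other 22 together changed by -0.32 (0.02 and -0.12 under the scalings).

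From green-up to jointing, 5 of 19 members were lower (26.3%), against 37.8% of all listed miRNAs, and 2 were higher (10.5%), against 16.4%. The median of the members was -0.76. The lower ones were miR5048-5p, miR5064, miR5067, miR5070-3p and miR6191, and the higher ones miR5050 and miR6201. The 95% intervals of miR5064 (-1.14 to -0.92) and miR6201 (0.82 to 1.21) span 2-fold. Under both scalings miR5048-5p and miR5064 were no longer lower by over 2-fold, and the others were, which gave 3 lower and 3 higher members.

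Over the whole period, from the three-leaf stage to jointing, 13 of 21 members were lower (61.9%), against 54.6% of all listed miRNAs, and 4 were higher (19%), against 16.9%. The higher ones were miR5169a, both miR6201 arms and miR7783-3p. The members' median log2 change was -1.29. Scaled to the listed miRNAs 6 were lower and 6 higher, and by the median ratio 7 were lower and 6 higher. The shares of changed members were near those of all listed miRNAs in most comparisons, and nothing particular to the group is read from them. Of the 22 members above 5 RPM in any library, 21 (95.5%) were past the thresholds in at least 1 of the 4 comparisons, against 85.2% of all listed miRNAs above that level. The exception was miR6205.

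**Figure D4:**
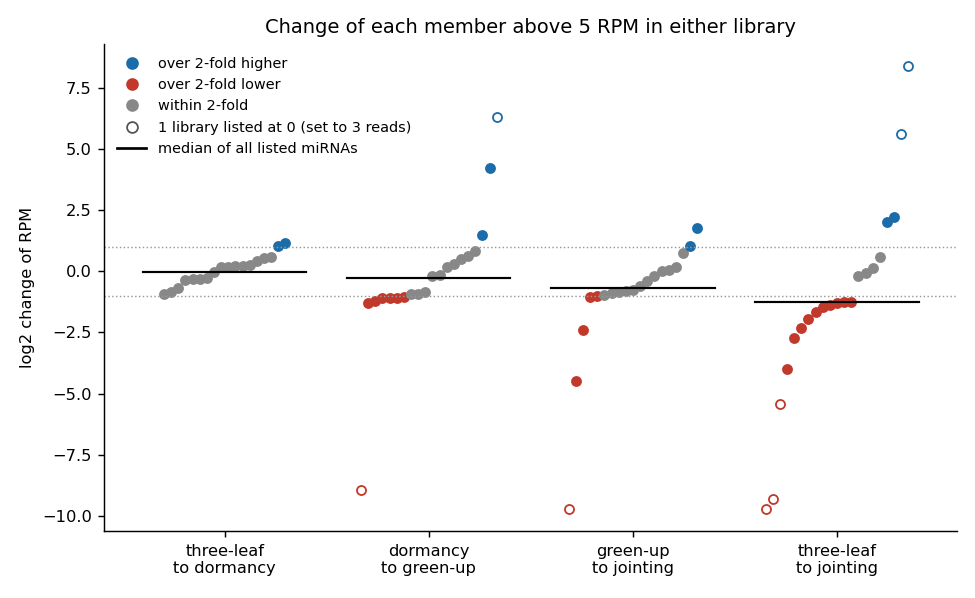
Log2 change of RPM for each member above 5 RPM in either library, in 4 comparisons of stages, sorted within each. Blue and red points are over 2-fold higher and lower, grey points lie between the dotted lines at -1 and 1, open points have 1 library at 0 set to 3 reads, and black lines are the median of all listed miRNAs (-0.01, -0.28, -0.70 and -1.25).

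Among the middle-ranked members, several were high early and low later. miR5071 had 256.3, 210.5, 99.6 and 99.9 RPM by stage. Its values formed an early and a late pair, with a log2 change of -1.08 between dormancy and green-up (-1.15 to -1.0). Under the scalings that step was -0.74 and -0.87, and the step from green-up to jointing was 0.64 and 0.54. The late pair thus depends on the scaling. miR5054 (24 nt) declined from 52.3 to 32.8, 28.5 and 19.0 RPM, although its steps after dormancy were close to 0 when scaled (0.14 and 0.00, then 0.05 and -0.05). miR5059 had 13, 12.9, 6.3 and 3.4 RPM, and its change of -1.03 at green-up, on a 95% interval of -1.34 to -0.73, cannot be placed on either side of 2-fold.

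miR7767-5p was listed only early, at 121.5 and 67.9 RPM in the first and second libraries and at 0 in the later ones. No fold change is given for it, since a 0 sets no lower limit here. miR7710-3p had the same pattern at a low level, with 6.1 and 4.9 RPM and then 0 in both later libraries. Both are 23 nt long and from the last block of numbers.

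Of the remaining members above 10 RPM, miR5168-5p alternated, with 139.5, 73.6, 105.4 and 59.0 RPM. Its steps of -0.92, 0.52 and -0.84 on the log2 scale were each under 2-fold, and the first library exceeded the last by 2.36-fold. Under the scalings the last step was -0.20 and -0.30, and the log2 change from the first library to the last -0.19 and -0.34. miR6205 (24 nt) had 31.2, 37.3, 57.1 and 29.3 RPM, highest at green-up and within 2-fold throughout. miR5067 stood at 22.2, 25.6 and 31.7 RPM and then dropped to 1.4 RPM at jointing. That last step was -4.50 on the log2 scale (-5.10 to -3.97), 22.6-fold, and -3.86 and -3.96 under the scalings, so jointing stood far below the other 3 libraries.

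Members higher in the later libraries were few. miR7783-3p (24 nt) had 0, 2.4, 44.4 and 46.0 RPM by stage. The step at green-up was 18.5-fold (log2 4.21, 3.8 to 4.66), and the last 2 libraries differed by 0.05 (-0.08 to 0.18). Under the scalings this last difference was 0.69 and 0.59, so it depends on the scaling. miR5169a was at 0 in both early libraries, at 11.6 RPM at green-up and at 6.7 at jointing.

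Both arms of miR6201 were higher toward jointing. miR6201 had 7.8, 8.7, 15.4 and 31.1 RPM, and miR6201-3p 4.8, 4.7, 13.1 and 22.2 RPM. Each was highest at jointing, 3.99-fold and 4.63-fold above the three-leaf stage (log2 2.0, 1.75 to 2.25, and 2.21, 1.90 to 2.53), and the scalings made these log2 changes larger, up to 3.26. In the best ungapped alignment of the sequences shown above, 19 of 20 aligned bases paired, 18 of them as Watson-Crick pairs. The share of miR6201 in the sum of both arms was 61.9%, 64.9%, 54.0% and 58.4%.

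The arms of miR5070 were unequal. miR5070-3p had 32.8, 47.3, 26.3 and 5.0 RPM, and miR5070-5p 3.8, 5.1, 2.4 and 0. Both were highest at dormancy and lowest at jointing. They paired at 19 of 20 aligned bases, all Watson-Crick. The 3p arm was 8.63, 9.28 and 11.0 times the 5p arm in the first 3 libraries. From green-up to jointing miR5070-3p changed by -2.40 on the log2 scale (-2.71 to -2.09). miR5070-5p also paired at 19 bases (of 21 aligned, 17 Watson-Crick) with wheat_miR1737, which had 0, 8.81, 11.15 and 6.73 RPM.

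miR5060 was complementary to a miRNA of another name. Its 21 nt paired at 18 of 19 aligned bases, 16 of them Watson-Crick, with miR444b.1, of a monocot family known to target MADS-box transcription factor genes. miR5060 had 12.7, 28.1, 14.8 and 11.2 RPM and miR444b.1 1211, 1107.2, 492.8 and 407.1 RPM. miR444b.1 was thus 95.4 times as abundant at the three-leaf stage, and 39.4, 33.3 and 36.4 times later. miR5060 was higher at dormancy than at the three-leaf stage (log2 1.15, 0.94 to 1.36, an interval that spans 2-fold). miR444b.1 had its highest value at the three-leaf stage.

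miR6191 and wheat_miR2133 were complementary over nearly their whole length, with 23 of 23 aligned bases paired and 22 of these Watson-Crick. miR6191 (24 nt) had 90.5, 105.7 and 120.2 RPM and was listed at 0 at jointing. wheat_miR2133 had 2.21, 2.09, 1.37 and 0.87 RPM, and remained listed at jointing. In the first 3 libraries miR6191 made up 97.6%, 98.1% and 98.9% of the pair. miR6191 also shares bases 2 to 8 with miR159a.1, although the complete sequences differ by 11 edits.

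miR5064 was a near copy of a more abundant wheat miRNA. It differs from miR9674b-3p by the substitutions U2G and C20A, with positions counted from the 5′ end and the base of miR5064 first. miR5064 had 224.4, 177.7, 93.2 and 45.6 RPM, and miR9674b-3p 3336.4, 2371.9, 1444.8 and 541.0 RPM. Both were lower in each later library, and miR9674b-3p was 14.9, 13.3, 15.5 and 11.9 times miR5064. Known miRNAs were assigned with fewer than 2 mismatches, so how reads with a sequencing error between these sequences were divided is not known.

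miR5050 and miR1877 were listed with the same 24-nt sequence but different values. miR5050 had 3.9, 4.5, 1.7 and 5.8 RPM, and miR1877 7.3, 7.2, 19.8 and 9.4 RPM. miR5050 was lowest at green-up, where miR1877 was highest, and miR5050 held 34.8%, 38.5%, 7.91% and 38.2% of the summed values. The table does not say which reads were given to which name, so the over 2-fold difference of miR5050 between green-up and jointing is uncertain.

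**Figure D5:**
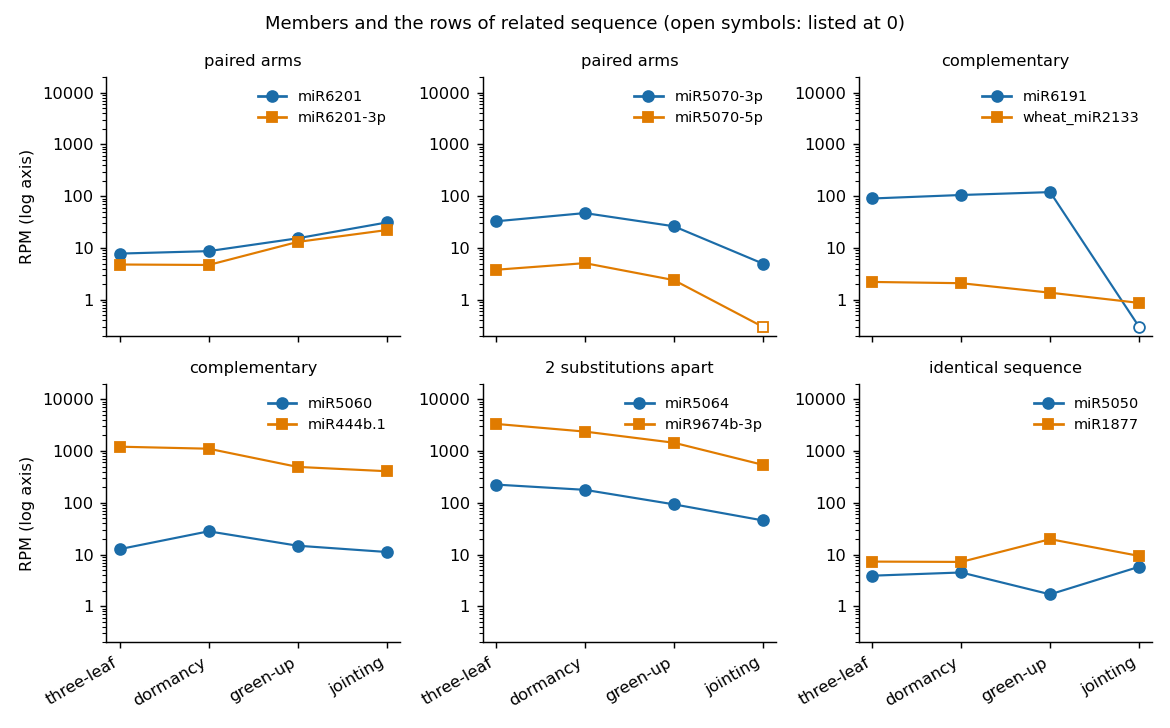
RPM (log axis) by library for 6 pairs of rows with complementary, nearly identical or identical sequences, with open symbols for values listed at 0. The miR6201 arms stay within 1.85-fold of each other, the miR5070 arms lie 8.63-fold to 11.0-fold apart while both are listed, and miR5050 and miR1877 diverge at green-up although their sequence is the same.

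miR7782-3p belonged to a set of rows built on the same stretch of bases. It had 26.9, 55.4, 50.4 and 29.8 RPM, highest at dormancy, where it was 2.06-fold above the three-leaf stage (log2 1.04, 0.90 to 1.19). The run GCUCUGAUACCA, found as the longest stretch shared with miR845c less its first base and chosen after the sequences were seen, occurred on the listed strand in 6 of the 348 rows (1.72%). With 1 mismatch it also occurred in miR7783-3p. In Arabidopsis, miR845 is known to match the primer-binding site of long terminal repeat retrotransposons, where a methionine tRNA primes reverse transcription. The sequences shown above mark this run in capitals.

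The rows with the exact run did not share one stage profile. miR1871 overlapped miR7782-3p in 20 bases and had 10.1, 14.1, 17.7 and 9.9 RPM, highest at green-up. miR5139, the most abundant of them, had 134.4, 54.5, 207.4 and 171.8 RPM and was lowest at dormancy, where miR7782-3p was highest. miR7782-3p made up 14.0%, 35.1%, 16.5% and 12.6% of the 6 rows' sum. miR7783-3p, with its mismatch, was the only row of the 7 listed at 0 in any library.

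The remaining members were low throughout. miR5055 (1.0 to 1.6 RPM), miR5068 (0 to 4.7 RPM) and miR7731-5p (2.2 to 4.6 RPM) did not exceed 5 RPM in any library. miR5068 was listed at dormancy and green-up alone.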

How the data were processed

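Small RNAs of wheat crowns were sequenced by the authors on a BGISEQ-500RS. Reads of structural and repeat RNAs were discarded with SOAP, and known miRNAs were assigned by BLASTN to miRBase with fewer than 2 mismatches. The versions of these tools are not given in the sources used here. The deposited values are RPM (headed TPM), with 1 decimal in the known section and 2 in the wheat_miRNA section. RPM is relative to all mapped reads, so a change in other small RNAs shifts every miRNA.

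Library totals were recovered as the number at which all 49 to 56 wheat_miRNA values above 0 per library were whole reads within rounding (0.005 RPM). The whole share was 100%, and at most 86.8% at the next best total. Wilson and exact binomial intervals used the approximate reads. The intervals, totals and fold counts were tested on simulated data. The study's DEGseq test was not run, and no p-value was computed.

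Relatives were rows of identical sequence, within 3 edits, or pairing at 18 or more bases, G-U pairs included. The further conditions of 15 Watson-Crick pairs, and a shared run of 13 bases, were set after the sequences were seen. All 25 members are named, those above 10 RPM in any library and both arms of a name with all values. The members and lists were chosen with earlier results of these data known. Other scalings, levels, folds and treatments of 0 were tried as alternatives. Python 3.11.15, numpy 2.4.6, scipy 1.17.1 and matplotlib 3.10.9 were used.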

Additional observations from a re-analysis of the deposited data

How the results depend on the processing

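Counts of members past 2-fold depended on the level, the zero rule and the scaling. From the three-leaf stage to dormancy, the 2 higher became 4 with more than 1 RPM or no level required, and 0 at 4-fold. At green-up, the 3 higher became 1 above 20 RPM, and the 7 lower became 1 when scaled to listed miRNAs, 2 by median ratio and 1 at 4-fold. At jointing against green-up, the 2 higher became 1 with a pseudocount of 1 RPM, 1 above 20 RPM and 0 at 4-fold, and the 5 lower became 3 under both scalings and at 4-fold. Against the three-leaf stage, the 4 higher at jointing became 2 when members at 0 were left out, and the 13 lower became 6 when scaled to listed miRNAs, 7 by median ratio and 6 at 4-fold. Under both scalings 6 were higher.

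The members' median log2 change in the first step became 0.33 by median ratio. At green-up it became -0.85 with no level filter or above 20 RPM, -0.19 when scaled to listed miRNAs and -0.32 by median ratio. From green-up to jointing it became -0.12 and -0.22, and over the whole period -0.24 and -0.39, under these scalings. Scaled to listed miRNAs, the members' sums became 14722.8, 17040.8, 9782.2 and 11717 RPM, so that jointing was no longer the lowest library. As deposited, the sums without the 3 abundant miRNAs were 1053.7, 913.5, 730.0 and 419.2 RPM. The 3 held 12.5%, 14.9%, 8.10% and 9.97% of all known RPM, and 95.5%, 96.4%, 94.0% and 94.8% of members listed in every library.

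Of 78 log2 changes of single members, 15 lost and 4 gained a 2-fold difference when scaled to listed miRNAs, 13 and 4 by median ratio, and no change past 2-fold turned sign under either. No replicate could be left out, and no paired analysis was possible because each stage has 1 pooled library. The depth limits members under 5 RPM.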
